A study of Mus musculus with 8 samples.

Results

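The mouse mitochondrial genome carries 37 genes, and all 37 have a row in the count table of the left and right heart fields. They were taken as the rows whose symbol in the GRCm38 annotation starts with mt-, which gave 13 protein-coding, 2 rRNA and 22 tRNA genes of 48526 genes in all. The heart field, the embryonic tissue that supplies cells to the growing heart tube, was taken as the region between the headfolds and the second somite. The heart and the back were removed in the dissection, and the left and right parts of the field were collected apart. Many markers of cardiomyocytes and of the neural tube still had counts, while others of these lists had few, as given further on. The embryos were wild-type C57bl6/J males at stage E8.5f, during the looping of the heart, and no embryo was treated or mutant. Of each of 4 embryos, named L29-3, L43-5, L46-8 and L49-3, the left and the right side gave a library of poly-A+ RNA apiece, so that the 8 libraries make 4 pairs, each from 1 animal. The questions asked of the mitochondrial genes were how much of each library they made up, whether they differed between the sides, and whether they differed between embryos.

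The mitochondrial genome is a small circle in the mitochondrial matrix that exists in many copies per cell. Its protein-coding genes specify core subunits of the respiratory chain complexes I, III and IV and of the ATP synthase, complex V, while its rRNA and tRNA genes serve translation inside the organelle. Both strands are transcribed by the RNA polymerase Polrmt into long precursors, which are cut at the tRNA genes, and most of the mRNAs then receive a short poly(A) tail. All other mitochondrial proteins, including those that copy and transcribe this genome, are made from nuclear genes. Stretches of the mitochondrial genome have also been copied into nuclear chromosomes, where they are annotated as pseudogenes.

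The copies bear on how reads of the members can be placed, so 3 member and copy pairs are shown, each over 120 bases, 5′ to 3′ on the strand of the gene, from the GENCODE transcripts of GRCm38. Capitals mark bases that differ within a pair. The first 120 bases of mt-Co2, subunit II of complex IV (chrM:7013-7696, plus strand), are the same in Gm28661 on chromosome 1 (chr1:24614885-24615565, minus strand), and the gene is shown because its reads could belong to either.
mt-Co2: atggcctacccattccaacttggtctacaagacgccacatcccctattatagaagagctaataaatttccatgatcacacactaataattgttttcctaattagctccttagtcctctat
Gm28661: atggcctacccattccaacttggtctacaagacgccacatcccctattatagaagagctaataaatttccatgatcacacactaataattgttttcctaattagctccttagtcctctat
The stretch from base 2 of mt-Cytb, cytochrome b of complex III (chrM:14145-15288, plus strand), has 7 differences in Gm11410 (chr4:80003989-80005131, plus strand), and no stretch of 130 bases of the gene occurs exactly in it, which is why the pair is shown beside mt-Co2.
mt-Cytb: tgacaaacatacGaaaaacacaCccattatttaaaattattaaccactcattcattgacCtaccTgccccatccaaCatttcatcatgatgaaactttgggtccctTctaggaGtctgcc
Gm11410: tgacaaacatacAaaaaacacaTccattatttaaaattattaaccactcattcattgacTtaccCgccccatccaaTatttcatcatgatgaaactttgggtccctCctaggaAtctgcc
The start of mt-Co1, subunit I of complex IV (chrM:5328-6872, plus strand), has 3 differences in Gm13340 (chr2:22588103-22589647, minus strand), the copy with the most counts.
mt-Co1: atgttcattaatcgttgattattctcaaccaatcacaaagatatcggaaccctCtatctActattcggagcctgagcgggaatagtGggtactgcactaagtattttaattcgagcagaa
Gm13340: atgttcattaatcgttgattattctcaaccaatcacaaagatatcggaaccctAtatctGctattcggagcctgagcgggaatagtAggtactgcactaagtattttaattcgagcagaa

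Over all genes, the total count was between 1147446 and 3520753 per library after the authors had removed duplicate reads, so that 3 counts, the limit that a count of 0 allows, correspond to between 0.852 and 2.61 CPM (counts scaled to a common total). The log2 ratio of the left to the right total was 0.58 (L29-3), -0.30 (L43-5), 0.63 (L46-8) and 0.11 (L49-3). Normalized counts were obtained by dividing counts by DESeq2 size factors, and a gene was tested if it reached 20 normalized counts in at least 4 libraries, the filter of the study. This left 9744 genes, among them 10 of the 37 mitochondrial genes. The 10 were mt-Rnr1, mt-Rnr2, mt-Nd1, mt-Nd2, mt-Co1, mt-Nd4, mt-Nd5, mt-Nd6, mt-Cytb and mt-Tp, and the other 27 were described by their counts alone. The intervals of shares and the limits for counts of 0 cover counting error only. The intervals of folds come from the fitted model and also include the spread between libraries beyond counting error.

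The protein-coding genes fell into 2 levels separated by a wide gap. The higher level held 7 genes, and their mean normalized count per kilobase of gene length was 5319 ± 446 (SD, n = 8 libraries) for mt-Cytb, 5166 ± 403 for mt-Co1, 4921 ± 374 for mt-Nd1, 3342 ± 365 for mt-Nd2, 3154 ± 256 for mt-Nd6, 2428 ± 193 for mt-Nd5 and 1460 ± 123 for mt-Nd4. The lower level held 6 genes, with 56.4 ± 23.6 per kilobase for mt-Nd3, 23.0 ± 9.23 for mt-Co2, 11.8 ± 4.85 for mt-Atp6, 9.90 ± 4.63 for mt-Atp8, 8.20 ± 5.08 for mt-Co3 and 5.44 ± 8.70 for mt-Nd4l. The means of mt-Nd4 and mt-Nd3, the neighbours across the gap, differed 25.9-fold. The lowest library of any of the 7 genes, at 1272 per kilobase, lay above the highest library of any of the 6, at 113 per kilobase. If only the bases of mt-Co1 and mt-Nd4 outside a nuclear copy described further on were taken as their length, the nearest genes differed 43.1-fold. The counts of mt-Co1 and mt-Nd4 were kept whole there, and the 6 lower genes kept their full length. Outside that copy, mt-Co2, mt-Atp6, mt-Nd3 and mt-Nd4l have 3 bases each and mt-Co3 has 1. This alternative could therefore widen the gap but not narrow it. The 6 genes cover 26.3% of the summed length of the 13 genes and held 444 of their counts over all libraries, or 0.172%, against 258317 counts for the other 7.

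Subunits of the same complex stood on both sides of the gap. Of complex I, the NADH dehydrogenase through which electrons enter the chain, mt-Nd1, mt-Nd2, mt-Nd4, mt-Nd5 and mt-Nd6 were in the upper level and mt-Nd3 and mt-Nd4l in the lower one. Of complex IV, the cytochrome c oxidase that passes electrons to oxygen, mt-Co1 was in the upper level and mt-Co2 and mt-Co3 in the lower one. mt-Cytb, the sole mitochondrial gene of complex III, was high, and mt-Atp6 and mt-Atp8, subunits of complex V, were both low.

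The order within the upper level was close at several places. mt-Cytb lay above mt-Co1 per kilobase in 7 of 8 libraries with a ratio of the means of 1.03, a difference smaller than the SD of either gene. mt-Co1 lay above mt-Nd1 in 8 of 8 libraries at a ratio of 1.05, also smaller than either SD. The step from mt-Nd1 to mt-Nd2 was larger, at 1.47, and was present in 8 of 8 libraries, as were those from mt-Nd6 to mt-Nd5, at 1.299, and from mt-Nd5 to mt-Nd4, at 1.66. In the lower level, mt-Nd3 lay above mt-Co2 in 8 of 8 libraries at a ratio of 2.45, but mt-Atp6 lay above mt-Atp8 in 4 of 8 libraries, and these neighbours did not differ beyond their spread.

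In the counts left after duplicate removal, mt-Co1 was the mitochondrial gene with the most counts. It ranked 5 among all genes by mean normalized count, regardless of length. The effect of duplicate removal on ranks, on levels per kilobase and on shares was not tested. The normalized count of mt-Co1 on the left and right was 7177 and 8714 (L29-3), 7631 and 7099 (L43-5), 8048 and 8628 (L46-8) and 8404 and 8153 (L49-3). The right side was higher in 2 embryos and the left in the other 2, so that the sides overlapped. mt-Cytb ranked 9, mt-Nd1 ranked 16, mt-Nd5 ranked 19, mt-Nd2 ranked 30, mt-Nd4 ranked 65 and mt-Nd6 ranked 100. mt-Co1 alone made up 24.6% of all mitochondrial counts, mt-Cytb 18.7%, mt-Nd1 14.7%, mt-Nd5 13.6%, mt-Nd2 10.6%, mt-Nd4 6.27% and mt-Nd6 5.05%.

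The 6 genes of the lower level are neighbours on the mitochondrial genome, running from mt-Co2 to mt-Nd4l (chrM:7013-10173), and the same block has a copy on chromosome 1. The copy is annotated in GRCm38 as 7 pseudogenes on the minus strand (chr1:24611535-24616197). It holds mt-Co2 as Gm28661, mt-Atp6 as Gm10925, mt-Co3 as Gm28437 and mt-Nd4l as Gm10222 at 100% identity over all but their last bases, mt-Nd3 as Gm28438 at 99.7%, the last 483 bases of mt-Co1 as Gm29216 at 99.8%, and the first 876 of 1378 bases of mt-Nd4 as Gm28439 at 100%. The 7 alignments have 2 mismatches in 4140 bases, and the distance between neighbouring copies equals that on the mitochondrial genome at 5 of 6 junctions and differs by 1 base at the other, between mt-Nd3 and mt-Nd4l.

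For each gene, every stretch of 130 bases, the length of a read, was looked up in the transcripts of its copies. An exact match existed for 99.5% of the stretches of mt-Co2, 99.5% of mt-Atp6, 99.8% of mt-Co3, 97.3% of mt-Nd3 and 98.2% of mt-Nd4l, but for 59.8% of mt-Nd4, 26.1% of mt-Co1, and 0% of mt-Nd1, mt-Nd2, mt-Nd5, mt-Nd6, mt-Cytb and the rRNA genes. The genes with nearly all of their stretches copied were thus those of the lower level, with the exception of mt-Atp8. mt-Atp8 had no annotated copy and 0% of its stretches matched. On chromosome 1, the copies of mt-Co2 and mt-Atp6 are separated by 233 unannotated bases, whose sequence was not compared with that of mt-Atp8. The distance is the same on the mitochondrial genome, where mt-Atp8 and mt-Tk lie in between. mt-Atp8 also shares its last 43 bases with the start of mt-Atp6. These are in capitals in the end of mt-Atp8 (chrM:7766-7969, plus strand), shown from its base 147 because reads over this stretch belong to both genes.
mt-Atp8: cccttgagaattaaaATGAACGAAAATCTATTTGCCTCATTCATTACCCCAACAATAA

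How reads that match several places were counted is not given in the sources used here, and the part of the copies in the low counts was not tested. The counts of the copies were themselves small. The 7 copies on chromosome 1 held 449 counts over all libraries, with 68 for Gm28661 against 130 for mt-Co2, 100 for Gm10925 against 69 for mt-Atp6, 70 for Gm28437 against 51 for mt-Co3, 49 for Gm28438 against 162 for mt-Nd3, 8 for Gm10222 against 13 for mt-Nd4l, and 100 for Gm28439 against 17346 for mt-Nd4. If the length of mt-Co1 and mt-Nd4 was taken as the bases outside the chromosome 1 copy, 1062 and 502 bases, their levels were 7516 ± 586 and 4008 ± 336 per kilobase instead of 5166 and 1460, so that mt-Co1 instead of mt-Cytb was the highest and mt-Nd5 instead of mt-Nd4 the lowest of the 7 upper genes. This length keeps the whole count of both genes and so assumes that no counted read came from their copied bases, which was not tested. It was chosen after seeing the data.

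The low genes had few counts in every library. mt-Nd3 had left and right counts of 17 and 14 (L29-3), 26 and 29 (L43-5), 23 and 31 (L46-8) and 10 and 12 (L49-3). mt-Co2 had 13 and 15 (L29-3), 30 and 27 (L43-5), 9 and 8 (L46-8) and 12 and 16 (L49-3). mt-Nd4l had 1 and 0 (L29-3), 3 and 3 (L43-5), 1 and 0 (L46-8) and 5 and 0 (L49-3), and the libraries at 0 allow up to 3 counts each. The sides overlapped in each of these genes. In a fit without the filter, which took in the 30 members with at least 1 count, edgeR called 0 of 30 between the sides, where 0.142% of all genes in that fit were called.

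**Figure D1:**
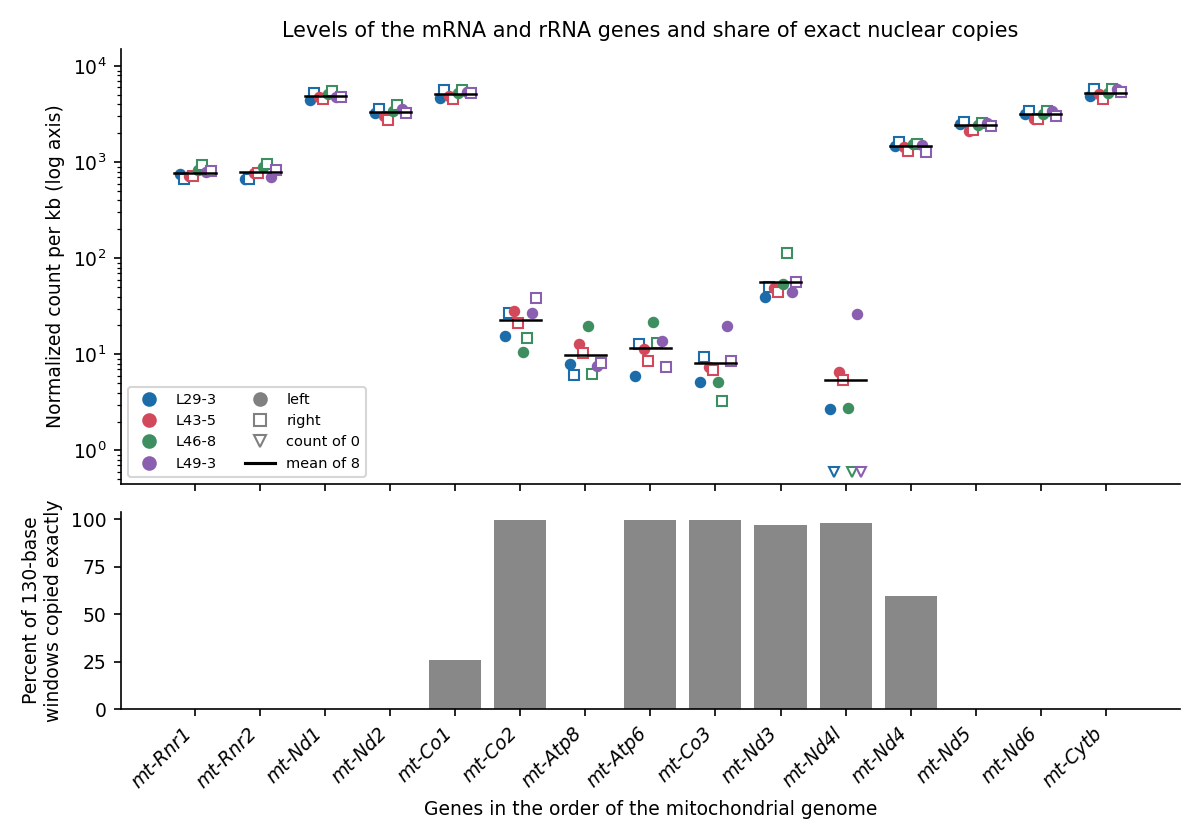
Upper panel, normalized count per kilobase (log axis) of the 13 protein-coding and 2 rRNA genes in the 8 libraries, filled circles for left and open squares for right, colored by embryo, with a line at the mean of the 8 libraries and triangles for counts of 0, which have no place on a log axis. Lower panel, percent of 130-base stretches of the gene that occur exactly in an annotated copy. mt-Co2, mt-Atp8, mt-Atp6, mt-Co3, mt-Nd3 and mt-Nd4l lie at or under 113 per kilobase in every library and all others at or above 665, and of the 6 low genes mt-Atp8 alone has a bar at 0.

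Other nuclear copies carried counts too. With matches of 90% identity or more across 100 bases or more as the definition, 16 annotated genes copied 11 of the members and held 1405 counts in all. Gm13340, which copies the whole of mt-Co1 at 97.6% identity, had the most, with 625 counts, and its counts on the left and right were 87 and 58 (L29-3), 107 and 94 (L43-5), 86 and 78 (L46-8) and 57 and 58 (L49-3). It was followed by Gm13341, a copy of mt-Co2 at 95.9% identity, with 153, and Gm13339, a copy of the end of mt-Nd2 at 96.7% identity, with 106. The copies of mt-Cytb and mt-Nd6 that run over the whole gene, Gm11410 at 92.9% and Gm11408 at 93.6%, had 1 and 23 counts against 51617 and 13951 for the members. All copies together held between 0.415% and 0.714% as many counts as the mitochondrial genes of the same library. Gm13341, Gm13339, Gm11410 and Gm11408 were chosen for naming after their values were seen.

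mt-Nd6 is the protein-coding gene on the minus strand (chrM:13552-14070), opposite to all others, and its transcript is the mRNA that is known to lack a regular poly(A) tail. Its level per kilobase was between 1.25 and 1.36 times that of mt-Nd5, with which it shares 14 bases on the opposite strand, in the 8 libraries, and it made up between 4.82% and 5.35% of the mitochondrial counts. The libraries were oriented, but whether the counting used the strand is not given in the sources used here. Reads from mt-Nd6 and from RNA of the opposite strand in the same place can therefore not be told apart.

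The 2 rRNA genes are the parts of the small and the large subunit of the mitochondrial ribosome. mt-Rnr1, the 12S rRNA (chrM:70-1024, plus strand), had 775 ± 83.2 normalized counts per kilobase (SD, n = 8 libraries), and mt-Rnr2, the 16S rRNA (chrM:1094-2675, plus strand), had 788 ± 105. Per kilobase, the 2 genes did not differ beyond their spread, and both lay under every gene of the upper mRNA level and above every gene of the lower one. Without regard to length, mt-Rnr2 had between 1.49 and 1.81 times as many counts as mt-Rnr1. The rRNA genes together made up between 4.89% and 6.79% of the mitochondrial counts of a library. The libraries hold the poly-A+ fraction, so that these are not levels of total rRNA.

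The 22 tRNA genes held 590 counts over all libraries, and 7 of them, mt-Tf, mt-Tv, mt-Tw, mt-Ts1, mt-Td, mt-Tk and mt-Tt, were at 0 in all 8. A count of 0 allows up to 3 counts per library. The counts were uneven between genes annotated on the plus and on the minus strand. The 8 genes annotated on the minus strand held 496 counts, or 84.1%, and between 27 and 92 in a library, whereas the 14 genes on the plus strand held 94 counts, and between 3 and 19 in a library. Since the use of the strand in counting is not given in the sources used here, a count on a gene of the minus strand can also come from RNA of the plus strand, and the reverse. The 5 tRNA genes within the block copied on chromosome 1 held 9 counts.

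mt-Tp, the tRNA for proline on the minus strand (chrM:15356-15422), held 315 of the tRNA counts, or 53.4%, and was the one tRNA gene to pass the filter. Its sequence is shown 5′ to 3′ because it carries the tRNA result, and capitals mark the anticodon at bases 31 to 33.
mt-Tp: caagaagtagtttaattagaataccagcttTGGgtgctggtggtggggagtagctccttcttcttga
Its normalized count on the left and right was 47.0 and 38.4 (L29-3), 34.6 and 28.8 (L43-5), 35.8 and 50.8 (L46-8) and 31.0 and 24.9 (L49-3). The left was higher in 3 embryos and the right in L46-8, and the sides overlapped. The minus strand genes other than mt-Tp held 181 counts, led by mt-Tc, the tRNA for cysteine, with 94, mt-Tn, for asparagine, with 37 and mt-Te, for glutamate, with 36. Of the 94 counts of mt-Tc, 27 were in the right library of L46-8. mt-Tl1, for leucine, had the most of the plus strand genes, with 22. mt-Tc, mt-Tn, mt-Te and mt-Tl1 were chosen for naming after their values were seen, and all of these genes are shorter than a read.

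**Figure D2:**
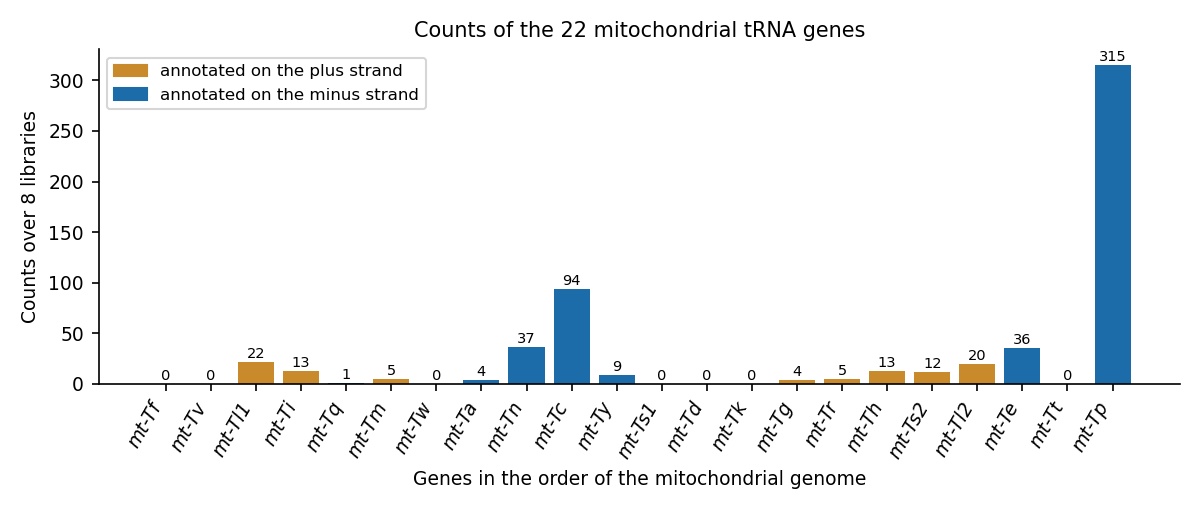
Counts of each of the 22 mitochondrial tRNA genes summed over the 8 libraries, in the order of the genome, colored by annotated strand, with the count above each bar. mt-Tp on the minus strand reaches 315, mt-Tc 94, and the highest plus strand gene, mt-Tl1, 22.

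The mitochondrial genes took up a similar share of all 8 libraries, in the counts left after duplicate removal. On the left and right, the share of the total count was 1.64% and 1.83% (L29-3), 1.64% and 1.53% (L43-5), 1.74% and 1.87% (L46-8) and 1.77% and 1.68% (L49-3). The 95% Wilson interval of the lowest share, on the right of L43-5, was 1.51% to 1.54%, and that of the highest, on the right of L46-8, was 1.85% to 1.89%. The right side thus held both the lowest and the highest share, and the left libraries lay within the range of the right ones.

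Neither side had the larger share in all embryos. The left mean was 1.70% ± 0.0679 and the right mean 1.73% ± 0.155 (SD, n = 4), and the log2 ratios of left over right were -0.16 (L29-3), 0.10 (L43-5), -0.10 (L46-8) and 0.072 (L49-3). Their mean was -0.022 with an SD of 0.13, with a larger share on the left in 2 of 4 embryos (exact two-sided sign-flip permutation test, p = 0.75, with 0.13 as the smallest p that 4 pairs allow). For the 13 protein-coding genes the left and right means were 1.59% ± 0.0659 and 1.62% ± 0.150 (exact permutation p = 0.875, higher on the left in 2 of 4). For the rRNA genes it was 0.103% ± 0.00875 and 0.107% ± 0.0157 (exact permutation p = 0.5, higher on the left in 2 of 4), and for the tRNA genes 0.00355% ± 0.000609 and 0.00382% ± 0.0015 (exact permutation p = 1, higher on the left in 3 of 4). The log2 ratio of the rRNA share had the sign of that of the protein-coding share in 2 of 4 embryos, with 0.0094 beside 0.11 in L43-5 and -0.14 beside -0.098 in L46-8. It had the opposite sign in the other 2, with 0.10 beside -0.17 in L29-3 and -0.16 beside 0.087 in L49-3. In bulk samples, fewer mitochondria-rich cells and less mitochondrial RNA per cell cannot be told apart.

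The share moved against the size of the library in 3 of the 4 pairs. In L29-3, L43-5 and L46-8 the library of the pair with more counts had the smaller mitochondrial share, and in L49-3, where the totals differed least, it had the larger one. The summed share of the 50 highest other genes had log2 ratios of left to right of -0.061, -0.0021, -0.060 and 0.018 in the same embryos. The part of the library size in these differences was not tested.

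**Figure D3:**
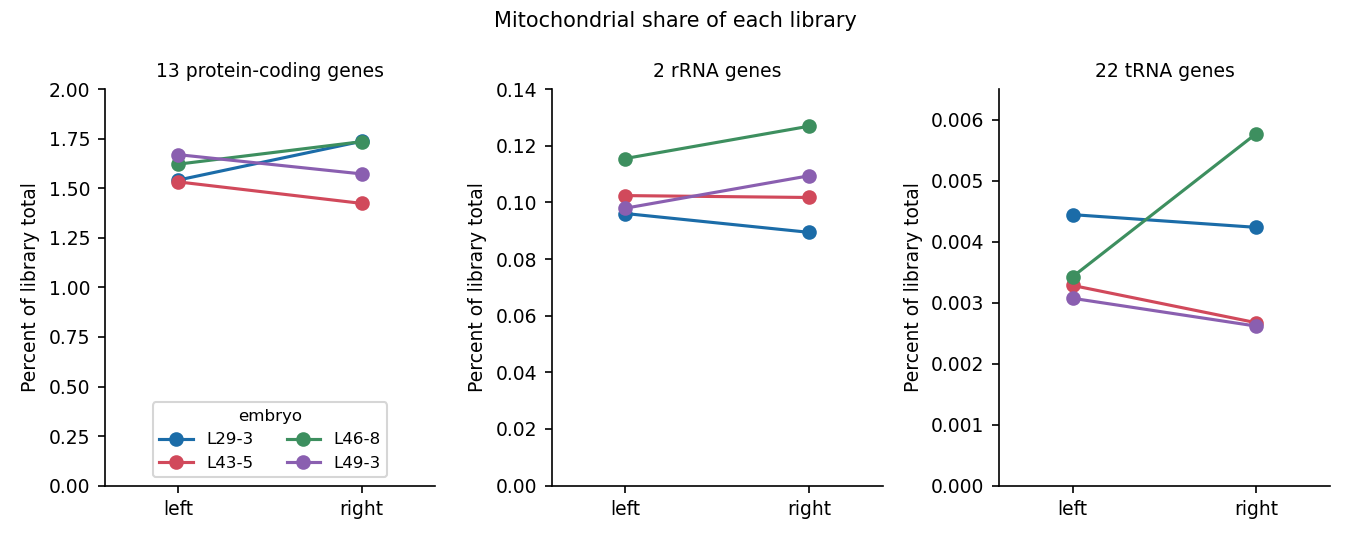
Percent of the library total held by the 13 protein-coding, 2 rRNA and 22 tRNA genes of the mitochondrial genome, from the counts of each library, with left and right of an embryo joined by a line. Each vertical axis starts at 0 and has its own scale, and the lines of the protein-coding share rise from left to right in 2 embryos and fall in the other 2.

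Gene by gene, no tested mitochondrial gene was called between the sides. edgeR's quasi-likelihood test, blocked by embryo, gave 0 of 10 genes with an adjusted p under 0.05 (Benjamini-Hochberg over all genes tested), where 0.0103% of all 9744 genes, or 1 gene, was called. 0 of 10 had an unadjusted p under 0.05, in edgeR as in DESeq2 and limma-voom, where 4.36% of all genes did in edgeR. By the threshold of the study, a change of 1.2-fold or more at an unadjusted p no larger than 0.05, 0 of 10 genes were called against 3.05% of all genes. 0 of 10 went the same way in all 4 embryos, where 12.5% of all genes did.

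The fitted log2 fold changes of left over right were small. Among the mRNAs they were -0.058 for mt-Nd1, -0.017 for mt-Nd2, 0.056 for mt-Nd4, -0.013 for mt-Nd5, -0.020 for mt-Nd6, -0.034 for mt-Cytb and -0.061 for mt-Co1, with standard errors of 0.053 to 0.069. The rRNA genes had -0.017 for mt-Rnr1 and -0.084 for mt-Rnr2, with standard errors of 0.071 and 0.064, and mt-Tp had 0.070 with a standard error of 0.22. The adjusted p was between 0.987 and 0.996 for the 10 genes in edgeR's quasi-likelihood test. Of the 10 values, 8 were below and 2 above 0, with a median of -0.018 beside -0.0042 over all genes tested, of which 5010 were below and 4734 above 0. Their median size without the sign was 0.045, beside 0.094 over all genes, and their median standard error was 0.067, beside 0.14 over all genes.

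The intervals give the sizes that remain possible for the counts left after duplicate removal. The paper reports that duplicates were numerous, and the effect of their removal on the folds of these high genes was not tested. The 95% interval of the fold of left over right was 0.871 to 1.05 for mt-Co1, 0.857 to 1.04 for mt-Rnr2, 0.876 to 1.05 for mt-Nd1, 0.882 to 1.08 for mt-Cytb and 0.937 to 1.15 for mt-Nd4. For mt-Tp it was wide, from 0.758 to 1.45. Thus a fold of 1.2 lay outside the interval of the 9 mRNA and rRNA genes tested, on either side of 1 on the log scale, but not outside that of mt-Tp.

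The direction differed from embryo to embryo, and the 7 upper mRNAs mostly had the same sign within an embryo. In L29-3 the log2 ratio was negative in the 7 upper mRNAs, from -0.28 for mt-Co1 to -0.074 for mt-Nd5, while mt-Rnr1 had 0.18 and mt-Rnr2 0.0073. In L49-3 it was positive in the 7, from 0.033 for mt-Nd1 to 0.26 for mt-Nd4, while mt-Rnr1 had -0.029 and mt-Rnr2 -0.23. In L43-5 it was positive in 6 of the 7, with up to 0.17 for mt-Cytb, and in L46-8 negative in 6 of the 7, with down to -0.20 for mt-Nd2. These genes were measured in the same libraries, so that they are not independent of each other.

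**Figure D4:**
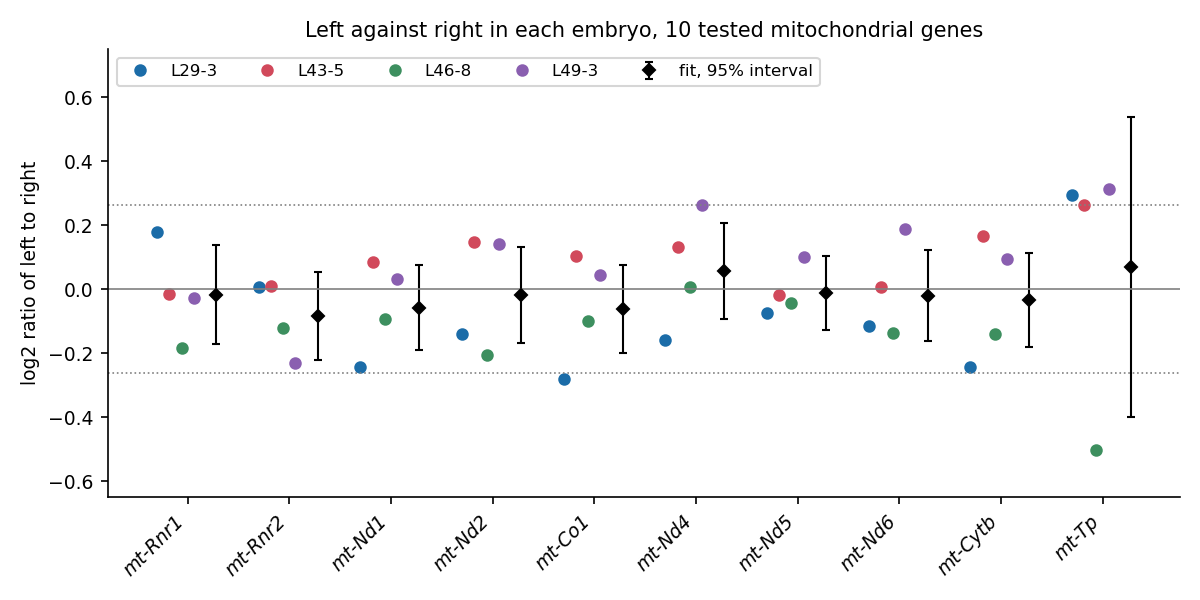
Left to right log2 ratio of the 10 tested mitochondrial genes in each embryo (colored points) and the fitted value with its 95% interval (black, n = 4 embryos). Dotted lines mark a fold of 1.2 in either direction. Every interval includes 0, and the lowest point is mt-Tp in L46-8 at -0.50.

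Differences between embryos stayed under the adjusted threshold, but 4 of the 10 genes were past an unadjusted one. With left and right as the replicates of each embryo, 0 of 10 genes had an adjusted p under 0.05 in edgeR's quasi-likelihood F test of the embryo terms (Benjamini-Hochberg), where 0.174% of all genes, or 17 genes, were called. 4 of 10 had an unadjusted p under 0.05, where 9.99% of all genes did, and the count was 2 of 10 without L43-5 and 2 of 10 without L46-8. They were mt-Rnr2, mt-Nd5, mt-Nd2 and mt-Rnr1, with adjusted p-values of 0.161, 0.318, 0.384 and 0.426 in this order from edgeR's quasi-likelihood test. Since they are cut from the same precursors and measured in the same libraries, the 4 are not separate pieces of evidence.

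mt-Rnr2 had left and right normalized counts of 1070.1 and 1065 (L29-3), 1231 and 1222 (L43-5), 1410 and 1534 (L46-8) and 1124 and 1318 (L49-3). Both libraries of L46-8 were above those of the other embryos and both of L29-3 below, and the mean of the highest embryo was 1.38 times that of the lowest. mt-Rnr1, with 718 and 635 (L29-3), 681 and 688 (L43-5), 786 and 893 (L46-8) and 752 and 768 (L49-3), was also highest in both libraries of L46-8, at 1.24 times the lowest embryo.

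The mRNAs had another order of embryos. mt-Nd5 had 4584 and 4823 (L29-3), 3874 and 3926 (L43-5), 4497 and 4638 (L46-8) and 4705 and 4389 (L49-3), and mt-Nd2 had 3379 and 3724, 3138 and 2831, 3514 and 4049, and 3731 and 3384 in the same order. In both genes the 2 libraries of L43-5 were the lowest of the 8, and the highest embryo was 1.21 times L43-5 for mt-Nd5 and 1.27 times for mt-Nd2. The mean of L43-5 was also the lowest of the embryos in every other upper mRNA. Its libraries had the largest total counts, 2864915 (left) and 3520753 (right), and the part of the library size in these differences was not tested. For the genes with larger p the ratio of the highest to the lowest embryo was 1.13 for mt-Co1, 1.13 for mt-Nd4, 1.15 for mt-Nd1, 1.15 for mt-Cytb, 1.17 for mt-Nd6 and 1.55 for mt-Tp.

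The call between embryos depended on the filter. With every gene that had at least 1 count in the fit, mt-Rnr2 (adjusted p = 0.000224), mt-Nd2 (adjusted p = 0.00135) and mt-Nd5 (adjusted p = 0.0168) passed the threshold in edgeR's quasi-likelihood test, 3 of the 30 members in a fit that called 641 of 23873 genes, or 2.69%, instead of 17 of 9744.

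**Figure D5:**
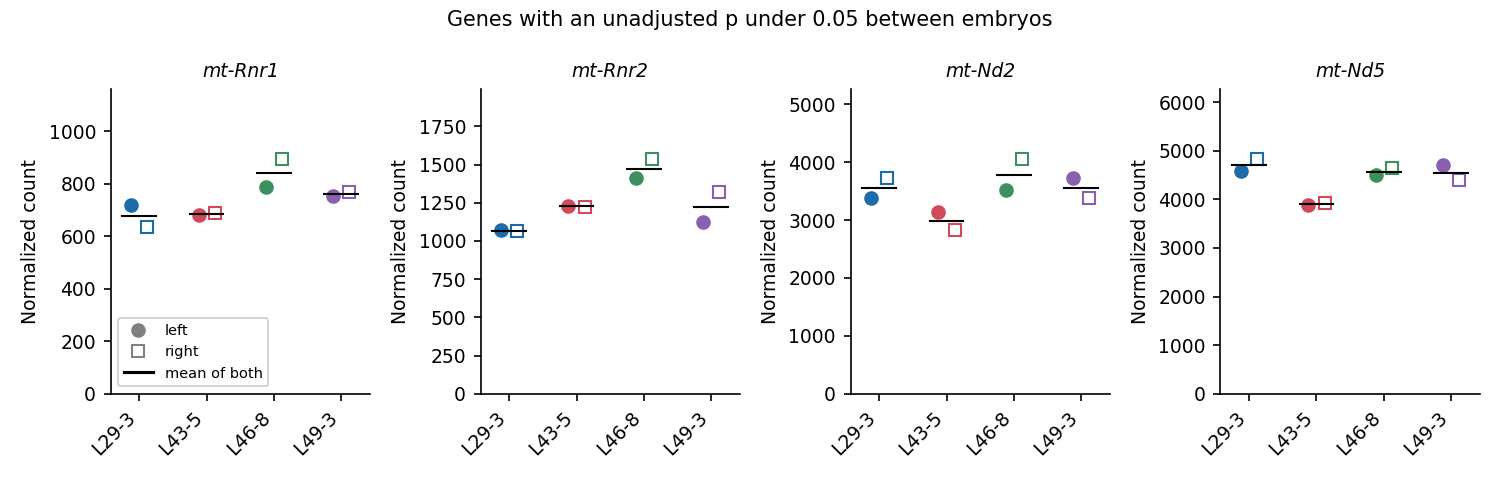
Normalized counts of mt-Rnr1, mt-Rnr2, mt-Nd2 and mt-Nd5 in the left (filled circles) and right (open squares) library of each embryo, with a line at the mean of both, on axes that start at 0. The rRNA genes are highest in L46-8 and the mRNAs mt-Nd2 and mt-Nd5 lowest in L43-5.

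Nuclear genes that serve the mitochondrial genome were read from the same fit. The 6 lists held 90 genes, of which 88 were in the table and 75 were tested, and 0 of 75 had an adjusted p under 0.05 in edgeR's quasi-likelihood test, either between sides or between embryos, while 2 of 75 had an unadjusted p under 0.05 between sides and 3 of 75 between embryos. These shares were below those of all genes tested, 4.36% and 9.99%. The fitted log2 fold changes were above 0 in 33 and below 0 in 42, with a median of -0.023. Of the transcription list, 6 of 10 genes were tested, and Polrmt, the polymerase, had 63.4 ± 6.45 normalized counts (left) and 67.4 ± 5.03 (right; SD, n = 4), and Tfam, which packages the genome and starts its transcription, 170 ± 17.5 and 182 ± 7.77. Lrpprc, which stabilizes mitochondrial mRNAs, had 254 ± 22 and 232 ± 12.9, and Mtpap, the mitochondrial poly(A) polymerase, 58.3 ± 11.5 and 56.6 ± 4.53. The adjusted p of these 4 genes, which were chosen for their roles and with their values seen, was between 0.987 and 0.996 between sides in edgeR's quasi-likelihood test.

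Polg, the polymerase that copies the mitochondrial genome, had the smallest unadjusted p of the 75 genes between sides. Its normalized count on the left and right was 373 and 436 (L29-3), 318 and 402 (L43-5), 348 and 360 (L46-8) and 260 and 341 (L49-3), lower on the left in 4 of 4 embryos while the sides overlapped, with a log2 fold change of -0.25 ± 0.078 (SE) and an adjusted p of 0.987 in edgeR's quasi-likelihood test. Ptcd2, known for the processing of the mt-Cytb transcript, followed with 49.1 ± 6.23 and 62.7 ± 4.07 on these sides (log2 fold change -0.36, adjusted p = 0.987), and then Tomm20, a receptor of the outer membrane, with 273 ± 24.9 and 302 ± 6.40 (log2 fold change -0.16, adjusted p = 0.987). Between embryos the smallest unadjusted p were those of Mrm2, which methylates the 16S rRNA (adjusted p = 0.363 in edgeR's quasi-likelihood test), of Polg (adjusted p = 0.368) and of Tbrg4, an RNA-binding protein of the matrix (adjusted p = 0.376). Mrm2 had 11.3 and 12.4 (L29-3), 28.7 and 26.1 (L43-5), 19.5 and 19.0 (L46-8) and 32.5 and 23.3 (L49-3) normalized counts, lowest in both libraries of L29-3.

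By list, 12 genes of mitochondrial mass were all tested, and their summed normalized counts were 5942 to 6429 on the left and 6330 to 6451 on the right. The sums of the transcription list were 515 to 571 and 526 to 623, and those of the replication list 1150 to 1262 and 1231 to 1290. The 29 of 32 genes tested for RNA processing and stability had 16 fold changes above 0 and 13 below, and the sum of the list was 2467 to 2688 and 2358 to 2596. The sum was 797 to 897 and 785 to 941 for translation factors, with 10 of 13 tested, and 1000.2 to 1134 and 1070 to 1155 for regulators of mitochondrial biogenesis, with 7 of 10 tested. In each list the range of the left overlapped that of the right. Within the pairs, the sum of the replication list, which includes Polg, was higher on the right in 4 of 4 embryos. The left and right sums were 1262 and 1278 (L29-3), 1150.1 and 1290 (L43-5), 1155 and 1241 (L46-8) and 1157 and 1231 (L49-3), a difference that was not tested. Polg alone had 373 and 436 in L29-3 and 260 and 341 in L49-3, a wider difference than that of the sums. Without Polg, the rest of the list was thus higher on the left in L29-3 and L49-3 and on the right in L43-5 and L46-8. No other of the 6 lists had 1 direction in all 4 embryos.

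Marker genes of tissues covered a wider range between libraries than the mitochondrial share did. The summed normalized count of 11 cardiomyocyte markers on the left and right was 6734 and 6304 (L29-3), 3831 and 5415 (L43-5), 4370 and 2339 (L46-8) and 853 and 2716 (L49-3), beside mitochondrial shares of 1.64% and 1.83%, 1.64% and 1.53%, 1.74% and 1.87%, and 1.77% and 1.68% in the same order. Of the 2 marker genes called between embryos in edgeR's quasi-likelihood test, Myh6, a myosin heavy chain of heart muscle, had normalized counts of 1548 and 1509 (L29-3), 675 and 1026 (L43-5), 820 and 430.2 (L46-8) and 40.3 and 234 (L49-3), with an adjusted p of 0.0470, and Tbx5, a transcription factor of the heart field, had 119.98 and 159.7, 89.97 and 139, 164 and 118, and 20.1 and 19.9 in the same order, with an adjusted p of 0.0201. The 12 heart field markers, all of which were tested, summed to 974 to 1848 on the left and 1190 to 1642 on the right. Neural tube markers summed to 379 to 927 on the left and 537 to 1057 on the right. Of the 11 cardiomyocyte and 8 neural tube markers, 8 and 6 passed the filter. The others were low, down to mean normalized counts of 0.194 for Nppa and 3.04 for Olig2, both named after their values were seen. Over both sides, surface ectoderm markers summed to 1090 to 1635, foregut endoderm markers to 502 to 698 and endothelium markers to 540 to 929. All 6 tested neural tube and all 8 tested cardiomyocyte markers had fitted fold changes below 0, and the other tested tissue lists had both directions. By embryo, the cardiomyocyte sum was higher on the left in L29-3 and L46-8 and on the right in L43-5 and L49-3. The neural tube sum was higher on the left in L29-3 and on the right in the other embryos. Markers of a list were measured in the same libraries and are not independent of each other. In edgeR's quasi-likelihood test between sides, 2 of the 6 neural tube markers had an unadjusted p under 0.05, where 4.36% of all genes did. No marker of these lists had an adjusted p under 0.05 between sides. Primitive blood markers summed to 1.24 to 43.1, with 0 of 8 genes tested. The part of the tissue makeup in the mitochondrial values was not tested.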

How the data were processed

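RNA of 8 libraries (4 left, 4 right heart fields) was measured. The authors aligned paired-end reads of 130 bases to GRCm38 with HISAT2, excluded duplicates and deposited featureCounts counts per gene, not normalized. Versions and the settings for strand and multi-mapped reads are not given in the sources used here. Duplicate removal and multi-mapping can lower counts of highly expressed and of copied genes. Replicates were the 4 embryos of each side as given by the labels.

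Symbols, positions and sequences were taken from GENCODE vM21 (GRCm38), with 48058 of 48526 identifiers matched. Copies were found with blastn 2.17.0, as matches of 90% identity or more across 100 bases or more. edgeR 4.0.16 (TMM, quasi-likelihood test, embryo as a block, R 4.3.3) was fitted to the 9744 genes with at least 20 DESeq2-normalized counts in at least 4 libraries, with Benjamini-Hochberg adjustment at 0.05. Log2 ratios of the mitochondrial genes in single embryos used no pseudocount and needed more than 3 counts on both sides. A pseudocount of 0.5 was used for those of the list genes and for the share of genes with the same direction in all 4 embryos. Shares were compared with exact sign-flip permutation tests. The statistics were tested on simulated counts that had no differences between embryos and planted side changes far larger than those fitted for the mitochondrial genes. That test therefore does not bear on changes as small as theirs. Both sides of an embryo are 1 animal, which pairs them. Their deviations from the side means correlated at 0.167, 0.187, -0.022 and 0.431, against -0.388 to 0.253 between embryos, and no 2 libraries agreed within sampling noise (smallest chi-square per degree of freedom 1.93).

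Alternatives were DESeq2 1.42.0, limma-voom (limma 3.58.1), other size factors, filters and denominators, no block, and each embryo left out. The members and lists were chosen with earlier results of these data known. Named are the mRNA and rRNA genes, tRNA genes past the filter, list genes with an adjusted p under 0.05 or among the 3 smallest p of the mitochondrial lists in each comparison, the copy with the most counts, and genes stated to be chosen later. The values of 1 marker gene are not reported here.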

Additional observations from a re-analysis of the deposited data

Results flagged for a closer look

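1 value of 38 groups of 4 embryos examined stood apart from the others. The left to right log2 ratio of mt-Tp was -0.50 in L46-8 and 0.26 to 0.31 in the other 3 embryos, a gap of 0.938 of the whole range, past Dixon's 95% critical value for 4 samples, which chance exceeds in about 1 in 20 groups. It rests on 44 left and 40 right counts, in libraries whose totals were 2336614 and 1507857.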

How the results depend on the processing

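Across all alternatives run, no mitochondrial gene was called between the sides, and the smallest adjusted p was 0.956. Of 120 fold changes of the 10 genes under alternatives, 105 kept their sign and 15 did not. The reversed ones left out L29-3 (mt-Nd1 0.0047, mt-Nd2 0.025, mt-Co1 0.012, mt-Nd5 0.0081, mt-Nd6 0.013, mt-Cytb 0.036, mt-Tp -0.0097), L43-5 (mt-Tp -0.012), L46-8 (mt-Rnr1 0.044, mt-Nd2 0.049, mt-Nd5 0.0012, mt-Nd6 0.022, mt-Cytb 0.0047) or L49-3 (mt-Nd4 -0.0061), or used no filter (mt-Nd5 0.0013), all of them near 0, and the cause was not tested. With each embryo left out in turn, the 10 fold changes ranged from -0.080 to 0.044 (mt-Rnr1), -0.12 to -0.035 (mt-Rnr2), -0.11 to 0.0047 (mt-Nd1), -0.072 to 0.049 (mt-Nd2), -0.12 to 0.012 (mt-Co1), -0.0061 to 0.13 (mt-Nd4), -0.046 to 0.0081 (mt-Nd5), -0.082 to 0.022 (mt-Nd6), -0.0995 to 0.036 (mt-Cytb) and -0.012 to 0.28 (mt-Tp). Leaving out an embryo moved the log2 ratio of the mitochondrial share between -0.062 and 0.023, of the protein-coding share between -0.061 and 0.032, of the rRNA share between -0.095 and -0.0077 and of the tRNA share between -0.15 and 0.20. The mitochondrial share changed sign without L29-3 (0.023) and without L46-8 (0.0050), as did the protein-coding share (0.032 and 0.0067), and the tRNA share did without L46-8. Other denominators and the counts of the copies, the latter added after seeing the data, changed no sign.

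Over all genes, 1 was called between sides, 34 with no filter, 0 with at least 10 counts in every library, 2 with DESeq2, 0 without the block, and 1 to 5 with an embryo left out. Between embryos 17 were called, 641 with no filter, 9 with at least 10 counts, 48 with DESeq2, 4 with limma-voom, and 0 to 237 with an embryo left out (46 without L29-3, 27 without L43-5, 237 without L46-8, 0 without L49-3). The mitochondrial genes called between embryos were 0, and 3 with no filter. Removing the embryo block changed no other call among the mitochondrial genes or shares, with exact permutation p of 0.771 for the mitochondrial, 0.83 for the protein-coding, 0.743 for the rRNA and 0.886 for the tRNA share. The gap between the levels was 25.9-fold, 26.0-fold without shared bases and 43.1-fold with the lengths of mt-Co1 and mt-Nd4 outside the copy. The last alternative was chosen after seeing the data and left the lower genes at full length, so that it could not narrow the gap. For the low genes and most tRNA genes, counts under 40 per library limit what can be seen.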
